A study of Mus musculus with 2 samples.

Results

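Contractile myofibroblast-like stromal cells were the 131 stromal cells with the highest summed level of 4 genes, Acta2, Tagln, Myl9 and Itga11, among 393 stromal cells found in 15360 cell barcodes of 2 single-cell RNA sequencing libraries. Of the 131 members, 25 came from the Gel100 library and 106 from the Gel50_CS50 library. Levels are unique molecular identifiers (UMIs, each the count of 1 captured mRNA molecule) per 1000000 UMIs of the cell or of the summed cells (CPM). Stromal cells had at least 3000 UMIs, under 20% mitochondrial UMIs, and at least 1% of their UMIs from the collagen genes Col1a1, Col1a2 and Col3a1. They also had at most 2 UMIs of the macrophage gene Csf1r, none of the T cell gene Cd3e or the endothelial gene Cdh5, at most 4 of the pericyte genes Rgs5, Kcnj8 and Abcc9, under 0.5% from the neutrophil genes S100a8 and S100a9, and under 200 CPM of 4 cell division genes. Both libraries were ranked together by the summed CPM of the 4 contractile genes, and the upper 1 in 3 cells were taken.

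The scaffolds had been placed without cells into a skull defect of 3.5 mm in female Balb/c mice aged 6 weeks, and were taken out after 1 week. There were 2 groups, mice with a Gel100 scaffold and mice with a Gel50_CS50 scaffold. The scaffolds of the 5 mice in a group were pooled, digested with enzymes, cleared of red blood cells, sorted by flow cytometry for viable cells and run as 1 droplet library, so the mice cannot be told apart and no group has a replicate. The labels do not say what the scaffold names mean, and an unoperated or empty-defect group was not analysed here.

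Myofibroblasts are wound fibroblasts that build bundles of smooth muscle actin, the product of Acta2, and pull on the matrix around them. The calponin-family protein transgelin (Tagln), the myosin regulatory light chain Myl9 and tropomyosins belong to the same bundles, and the integrin subunit Itga11 is part of a receptor that holds fibrillar collagen. Tension and TGF-beta switch on many of these genes through serum response factor, which binds a short DNA element called the CArG box. Pericytes and vascular smooth muscle cells carry the same contractile genes but are marked by Rgs5 and Myh11.

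Stretches of the promoters of 3 contractile genes are shown as examples of the CArG box, by which such genes are known to be read. They were picked because they hold a match. The letters are from RefSeq on GRCm38.p6, and the capitals mark CArG boxes found in them, either complete or with 1 of the 6 middle letters differing. The Myl9 stretch lies at chr2:156775214-156775419 on the plus strand and the Cnn2 stretch (calponin 2, an actin-binding protein) at chr10:79988350-79988583 on the plus strand. Of Acta2, where GENCODE places an exon in this window, 30 bases around each match are shown, at chr19:34255438-34255467 and chr19:34255388-34255417 on the minus strand, in the order printed.
Acta2, upstream match: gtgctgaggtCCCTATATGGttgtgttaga
Acta2, downstream match: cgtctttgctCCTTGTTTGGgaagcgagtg
Myl9: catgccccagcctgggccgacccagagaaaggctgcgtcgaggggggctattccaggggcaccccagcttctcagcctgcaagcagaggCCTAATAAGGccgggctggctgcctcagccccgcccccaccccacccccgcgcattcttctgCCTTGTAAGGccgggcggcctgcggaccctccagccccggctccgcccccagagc
Cnn2: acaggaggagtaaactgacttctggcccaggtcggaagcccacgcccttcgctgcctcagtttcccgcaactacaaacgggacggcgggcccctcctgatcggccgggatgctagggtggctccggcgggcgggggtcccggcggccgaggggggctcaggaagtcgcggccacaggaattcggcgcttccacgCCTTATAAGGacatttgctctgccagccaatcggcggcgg

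Cnn2 held 1 complete box, 56 bases before the RefSeq start. Myl9 held 1 complete and 1 with a differing letter, which began 161 and 99 bases before the start. Both Acta2 matches, 84 and 34 bases before the start, had 1 differing letter. In the 250 bases before the start, 1.47% of 32851 RefSeq promoters held a complete box, against 5 of 33 promoters (15.2%) of the contractile list, of whose 33 genes 28 were matched. With 1 differing letter allowed the shares were 8.59% and 24.2%. The box reads the same on both strands, and a match describes the letters only. The promoters of Itga11, of the tropomyosins Tpm1 and Tpm2, and of Cnn1, Flna and Tagln2 held no match in this window.

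The Gel100 library held 7845 barcodes with 108847835 UMIs and the Gel50_CS50 library 7515 with 150311308, and 6088 and 7068 barcodes passed the limits on UMIs and mitochondrial share. Members had medians of 61580 and 49995 UMIs per cell, and the other stromal cells 41005 and 49234. A median of 3.74% and 4.44% of a member's UMIs came from the 3 collagen genes. The libraries shared 24 barcode sequences, of which 1 was a member's. Scrublet called 0 members and 4 other stromal cells doublets. At least 1 UMI of the leukocyte gene Ptprc was found in 6 and 31 members. Square brackets below hold 95% intervals, which cover counting error only, and with 1 library per group no test between groups was possible. Lower numbers of members make Gel100 values the less certain, and where 1 cell holds much of a gene's UMIs this is given. Ratios without the highest cells leave out, from each of the groups compared, the cell with the most UMIs of the gene.

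Markers of other cell types were read to check the name. The rule itself holds down 8 of them, the pericyte genes Rgs5, Kcnj8 and Abcc9, Csf1r, S100a8, S100a9, Cd3e and Cdh5. Nothing is read from these 8, and sums that hold them are named as such. Of the pericyte and smooth muscle markers, Myh11 was at 0 and 0.365 CPM in the members of Gel100 and Gel50_CS50, and Higd1b at 0 and 0. Mural reference cells, which had at least 5 UMIs of Rgs5, Kcnj8 and Abcc9, held 219 and 147 CPM of Myh11. Summed over the 9 markers of that list, 3 of them limited by the rule, the members stood at 67.2 and 83.0 CPM. The other stromal cells were lower, at 29.0 and 36.2, and the mural reference stood at 5376 and 3460.2. The same 3 markers picked the mural reference, so the gap to it is partly set by the choice of cells. Desmin (Des), an intermediate filament of muscle, was found at 20.6 and 11.5 CPM in members and 0.329 and 1.49 in other stromal cells, with 87.1% of its Gel100 UMIs in 1 member. Macrophage markers summed to 175 and 184 CPM in members, 247 and 250.4 in other stromal cells and 16433 and 20567 in macrophages. That sum holds Csf1r, which the rule limits and by which the macrophages were picked (at least 3 UMIs). Part of this gap is thus also set by the choice. A single Gel100 member of 3093 UMIs stood apart, at 5496 CPM of macrophage markers from 17 UMIs. Markers of skeletal muscle, Schwann cells, adipocytes, endothelium and T and NK cells each summed to under 10 CPM in both libraries, with Myod1, Myf5, Sox10, Adipoq and Cd3d at 0. Cdh5 and Cd3e, which the rule holds at 0, are part of the endothelial and the T and NK sums. Among bone markers Bglap was at 0 and Alpl at 3.99 and 12.8 CPM. Neutrophil markers, 2 of which the rule limits, summed to 24.6 and 128 CPM, and chondrocyte markers to 57.2 and 47.2.

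Of further genes used to mark myofibroblasts, both tropomyosins were higher in members of either library and the matrix genes less evenly so. Periostin (Postn), a matrix protein of healing tissue, was not higher in members, at 800.4 and 643 CPM against 906 and 836 in other stromal cells. Cthrc1, a secreted collagen-linked protein, stood at 1013 and 758 CPM against 579.6 and 642, and Lrrc15, a surface protein of TGF-beta-exposed fibroblasts, at 327 and 213 against 201 and 180.2. Calponin 1 (Cnn1), an actin-binding protein of smooth muscle, stood at only 9.31 and 5.11 CPM in members, with a UMI in 20% and 9.43% of them. The name therefore rests on contractile genes, 4 of which the rule itself used.

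Acta2 carried most of the score. It made up 68.3% and 59.9% of the members' score UMIs in Gel100 and Gel50_CS50, Tagln 20.5% and 24.8%, Myl9 9.34% and 11.0%, and Itga11 1.92% and 4.25%. Across members the lowest, median and highest Acta2 levels were 32.4, 1143 and 3753 CPM in Gel100 and 136, 1077 and 4436 CPM in Gel50_CS50. For Tagln they were 0, 367 and 1498 CPM in Gel100 and 0, 299 and 4316 CPM in Gel50_CS50. All members held Acta2, and in both libraries the highest member held over 3 times the median. For Myl9 the lowest, median and highest members stood at 0, 214 and 592 CPM in Gel100 and 0, 193 and 952 CPM in Gel50_CS50. For Itga11 they stood at 0, 0 and 293 CPM in Gel100 and 0, 71.9 and 503 CPM in Gel50_CS50, so that more than 1 in 2 Gel100 members had no UMI of it. Acta2 (ENSMUSG00000035783) lies on chromosome 19 at 34241090 to 34255590 of mm10, Tagln on chromosome 9 at 45929619 to 45936058, Myl9 on chromosome 2 at 156775420 to 156781658 and Itga11 on chromosome 9 at 62677826 to 62783982.

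The score fell off smoothly with no gap at the limit. The lowest member stood at 699 CPM and the highest other stromal cell at 698, with 6 members and 10 other cells within 10% of the limit. The median score of members was 1719 CPM in Gel100 and 1768 in Gel50_CS50, and 29 stromal cells had a score of 0. The members are a range of this score, and whether they form a cluster on other genes was not examined.

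**Figure D1:**
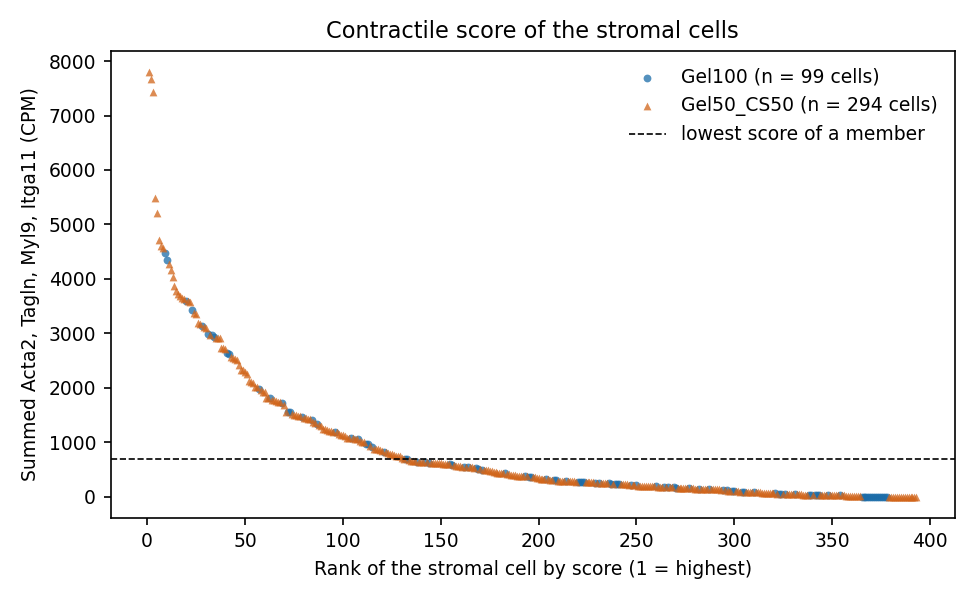
Each point is 1 stromal cell, ordered by rank (x axis) with its summed level of the 4 contractile genes in CPM (y axis); circles are the 99 Gel100 cells and triangles the 294 Gel50_CS50 cells. The curve has no step at the dashed line, the score of the lowest member (699 CPM), and cells of both libraries lie along its length.

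The 4 genes did not rise alike over the score. The lowest, middle and top cells were cut on the sum of these 4 genes, so a rise is partly built in, most of all for Acta2. Acta2 stood at 44.4 and 38.9 CPM in the lowest 131 stromal cells of Gel100 and Gel50_CS50, at 238 and 246 in the middle 131 and at 1444 and 1276 in the members. Tagln went from 2.88 and 5.40 through 57.5 and 44.9 to 433 and 529 CPM, and Myl9 from 4.62 and 6.30 through 43.7 and 43.5 to 198 and 235. Itga11 in Gel100 was not higher in members (40.6 CPM) than in the middle cells (46.7 CPM), whereas in Gel50_CS50 it stood at 90.6 against 62.6. Its log2 ratio of members over all other stromal cells, 0.62 [0.12 to 1.12] in Gel100 and 1.09 [0.90 to 1.29] in Gel50_CS50, was between -0.41 and -0.043 in Gel100 under 3 alternatives. Over all stromal cells (n = 99 and 294 cells, which share a library and differ in depth) Spearman's rho was 0.68 and 0.71 between Acta2 and Tagln, 0.60 and 0.70 between Acta2 and Myl9 and -0.054 and 0.14 between Acta2 and Itga11. Itga11 had its highest rho with the fibrillar collagen Col11a1, at 0.49 and 0.59, among the genes it was set against in both libraries.

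The level of Acta2 in members is set by the rule, and other cells give its scale. Macrophages, which should lack them, held 6.64 and 7.91 CPM of Acta2. With every cell thinned to 3000 UMIs, 92% and 93.4% of members held an Acta2 UMI, against 5% and 6.59% of the lowest 131 stromal cells and 1.41% and 2.15% of macrophages. Without thinning the shares were 100% of members and 7.17% and 13.7% of macrophages, whose median depths were 18022 and 20048 UMIs. Stromal cells set aside for their cell division genes held 446 and 706 CPM of Acta2, between the middle cells and the members. Mural reference cells held 2541 and 1046 CPM in sum, but their median cell held only 167 and 134 and their highest 21877 and 9681. They also held 1834 and 1113 CPM of the fibroblast gene Pi16, so they do not stand for mural cells alone and serve only for scale.

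To read each score gene without its own part in the choice, cells were ranked by the other 3 genes and the upper 1 in 3 taken again. Acta2 then stood at 1433 CPM in the chosen cells and 259.9 in the rest of Gel100, and at 1171 and 250.2 in Gel50_CS50. The log2 ratios were 2.46 and 2.23 for Acta2, 3.66 and 4.01 for Tagln, and 2.87 and 2.96 for Myl9. For Itga11 they were 0.53 (0.032 to 1.03) and 0.95 (0.76 to 1.14). Acta2, Tagln and Myl9 were thus higher in the chosen cells also without their own counts in the ranking, and Itga11 much less so. Of the 131 chosen cells 105 were members when Acta2 was left out, and 126 when Tagln or Myl9 was. Acta2 carries most of the score, so leaving out Tagln or Myl9 changed the choice little.

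The contractile share of the stroma can be compared only between these 2 pools. Members made up 25.3% of Gel100 stromal cells (25 of 99, exact Clopper-Pearson interval 17.1 to 35.0%) and 36.1% of Gel50_CS50 stromal cells (106 of 294, 30.6 to 41.8%). The difference was 10.8 percentage points (Newcombe interval 0.0468 to 20.2), whose lower bound is close to 0. Under 11 of 13 alternatives the interval included 0, for example 7.68 points (-2.36 to 16.1) with the upper 1 in 4 cells as members, so a difference in share is not established even for these pools. Of all cells that passed the limits on UMIs and mitochondrial share, members were 0.411% (0.266 to 0.606%) and 1.5% (1.23 to 1.81%), a ratio of 3.65. Stromal cells themselves were 1.63% and 4.16% of these cells, so most of that ratio was the number of stromal cells. Of 215 and 705 such cells that also met the collagen limit, 99 and 294 passed the limits on other cell types and cell division. The Cd3e limit alone took out 15 and 84 cells, and the Cdh5 limit alone 29 and 80. The sort for viable cells, the filter and the depth per cell can each set these shares, and their part was not tested.

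Genes of members and of the other stromal cells were then set side by side within each library, as a description, since the members were chosen from the same counts. A gene counted as measured where its mean reached 20 CPM, and as differing where members were over 1.5-fold higher, or lower by as much, in both libraries. Of 6858 measured genes 190 (2.77%) were higher and 455 (6.63%) lower in members by this count, the score genes among them, and nothing is read from these shares. The median log2 ratio over all measured genes was -0.018 in Gel100 and 0.0022 in Gel50_CS50.

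Several contractile genes outside the score went with it. Of 33 genes of the contractile apparatus that the score did not use, 25 were measured. Of these, 11 were over 1.5-fold higher in members of both libraries, 0 lower and 14 neither, against 2.77% and 6.63% of all genes. The median log2 ratio of the list was 0.59 and 0.67. Its sum was 17788 and 16779 CPM in members and 12061 and 10874 in other stromal cells. It was also high in stromal cells set aside for cell division genes (15482 and 15435), mural reference cells (17003 and 13096) and macrophages (15814 and 15676). A high sum is thus not particular to members. The actin-stabilising tropomyosin Tpm2 ranged over 0, 393 and 963 CPM in Gel100 and 62.8, 396 and 1350.05 CPM in Gel50_CS50 across members (lowest, median, highest). Summed, it stood at 434 and 475 CPM in members and 171 and 169 in other stromal cells, log2 ratios of 1.34 [1.17 to 1.51] and 1.49 [1.40 to 1.59]. The Gel100 ratio was 0.42 with cells thinned to 3000 UMIs. Tpm2 levels in single cells overlapped widely between members and the rest, where 82.4% and 89.4% of cells also held a UMI. Tpm1 stood at 999 and 1061 against 527 and 483 CPM and Cnn2 at 244 and 277 against 110.3 and 101. The LIM-domain actin regulators Csrp1 and Csrp2, the non-muscle myosin heavy chain Myh9, the actin cross-linker Actn1, caldesmon (Cald1) and cytoplasmic actin (Actb) were also among the 11, with log2 ratios between 0.59 (Actb, Gel100) and 1.43 (Csrp2, Gel100).

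Smooth muscle gamma actin, Actg2, was low in members and lower still in the other stromal cells. It was found at 31.3 and 40.3 CPM in members against 0.987 and 1.92 in other stromal cells, log2 ratios of 4.99 [3.35 to 7.31] and 4.39 [3.70 to 5.17], with a UMI in 32% and 41.5% of members and 4.05% and 5.32% of the others. It was singled out after its values were seen. The actins have near-identical coding sequence, and the sources used here do not say how reads shared between them were counted.

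Genes that anchor actin to the cell surface had smaller median ratios than the contractile list. Of 22 focal adhesion and actin linker genes, 2 were higher and 2 lower in members, with medians of 0.20 and 0.22. Of all measured genes 2.77% were higher and 6.63% lower, and nothing is read from list counts this small. Nexilin (Nexn), an actin filament linker, stood at 57.2 and 54.7 CPM against 13.8 and 19.5, and the adhesion scaffold paxillin (Pxn) at 23.3 and 20.6 against 54.3 and 44.1. Of 12 measured genes that act in or respond to the serum response factor and YAP pathways, 1 was higher and 1 lower, against the same shares. The higher was Ccn2, connective tissue growth factor, and its relative Ccn1 was at 144 and 127 CPM against 151 and 148. Serum response factor itself (Srf) stood at 19.3 and 9.30 CPM in members and 9.87 and 5.45 in the others, below the level set for a measured gene.

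Of the 15 leading genes higher in members, several encode secreted proteins. Ccn2 had lowest, median and highest members of 0, 45.2 and 1851 CPM in Gel100 and 0, 42.9 and 1609.97 CPM in Gel50_CS50. Its sums were 280.1 and 158 CPM against 53.3 and 36.8 in other stromal cells, log2 ratios of 2.39 [2.13 to 2.66] and 2.10 [1.92 to 2.28]. The highest member held 30.9% of the Gel100 UMIs, and the Gel100 ratio was 0.066 when the score left out Acta2 and 0.55 with the upper 1 in 4 cells as members. Pappa, a protease that frees insulin-like growth factors, stood at 165 and 119 CPM against 9.54 and 20.1 (4.11 [3.55 to 4.72] and 2.56 [2.33 to 2.81]). Of its Gel100 UMIs 75% were in 1 member, and the log2 ratio was 2.40 without the highest cells. Of all members over 1 in 2 in either library had no Pappa UMI.

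The fatty acid carrier Fabp5 was found at 735 and 495 CPM in members against 138 and 171 (2.41 [2.25 to 2.58] and 1.53 [1.44 to 1.62]). The matricellular gene Ccn4 stood at 156 and 196 against 43.4 and 95.3, and the cyclin gene Ccnd1 at 88.5 and 77.7 against 27.3 and 33.2. Median members held 145 and 142 CPM of Ccn4, so that this gene, unlike Pappa, was spread over most of them. With cells thinned to 3000 UMIs the Gel50_CS50 log2 ratio of Ccn4 went from 1.04 to 0.21, and the Gel100 ratio of Ccnd1 from 1.70 to -0.037. Pakap, which spans a kinase anchor and a paralemmin, stood at 71.2 and 125 against 21.4 and 28.1 CPM and was found in 88% and 85.8% of members against 29.7% and 36.7% of the others. The secreted protein gene C1qtnf3 stood at 288 and 129 against 64.5 and 64.6, with a Gel100 log2 ratio of 2.16 that was 0.25 among cells without Csf1r or Ptprc UMIs.

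For 3 of the leading genes 1 cell decided a value. The hyaluronan-degrading Cemip stood at 70.5 and 114 CPM against 25.3 and 23.9, with 61.3% and 46.5% of the members' UMIs in 1 cell of each library, and log2 ratios of 1.48 and 2.25 that were 0.67 and 1.62 without the highest cells. Tiam2, an activator of the small GTPase Rac, stood at 180.3 and 103 against 31.9 and 56.6 with 71.2% in 1 Gel100 member, and its log2 ratio there went from 2.50 to 1.46 without the highest cells and to -0.72 with the upper 1 in 4 cells as members. Osteopontin, Spp1, which macrophages and bone cells also make, stood at 764 and 628 CPM against 177 and 334. In Gel100 86.5% of the members' Spp1 UMIs were in 1 cell, and the log2 ratio went from 2.11 to -0.073 without the highest cells. In Gel50_CS50 the Spp1 ratio was 0.91, and 0.96 without the highest cells.

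Some TGF-beta ligands were higher and some receptors lower in members, but most genes of the list were neither. Of 20 measured genes 4 were higher in members, 2 lower and 14 neither, with medians of -0.21 and 0.030. Of all measured genes 2.77% were higher and 6.63% lower. The ligands Tgfb3 (79.8 and 84.2 CPM against 24.7 and 36.2) and Tgfb2 (204 and 151 against 86.9 and 99.5) were higher, as were the latent TGF-beta binding protein family member Ltbp2 (136 and 99.4 against 34.9 and 55.4) and the feedback gene Pmepa1 (769 and 732 against 492 and 483). The lower ones were the receptors Tgfbr2 (164 and 187 against 460.1 and 442, log2 ratios -1.49 and -1.24) and Tgfbr3 (198 and 273 against 571 and 643, -1.53 and -1.23). In Gel100 the log2 ratio of Tgfb3, 1.69 as reported, was 0.030 among cells without Csf1r or Ptprc UMIs, which ends its call, and in Gel50_CS50 that of Ltbp2 went from 0.84 to 0.35 with cells thinned. The ligand Tgfb1 stood at 46.6 and 46.1 against 39.2 and 31.9.

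Matrix genes went both ways. Of 30 wound matrix genes 7 were higher in members and 4 lower, against 2.77% and 6.63% of all measured genes. The list's medians were 0.38 and 0.25. Col11a1, a collagen that seeds thin fibrils, had lowest, median and highest members of 0, 351 and 4039.6 CPM in Gel100 and 0, 1041 and 4543 CPM in Gel50_CS50. The sums were 585 and 1228 CPM against 262 and 333 (1.16 [1.02 to 1.30] and 1.88 [1.82 to 1.94]), and the median other stromal cell held none in either library. The fibril regulator Fmod stood at 248 and 302 against 59.6 and 98.4, the fibril-linking Col12a1 at 1239 and 1909 against 712 and 936, and the fibrillin Fbn2 at 124 and 176 against 43.1 and 81.6. The Fmod ratio in Gel100, 2.06, was 0.59 with the upper 1 in 4 cells as members. Lower in members were the other fibrillin Fbn1 (1311 and 1080.5 against 3161 and 2102), decorin, Dcn (1234 and 1519 against 2922 and 3007), Mfap5 (536 and 313 against 1039 and 726) and Col14a1 (264 and 239 against 772 and 695). Of 20 genes for folding and cross-linking collagen 0 were higher and 1 lower, which is near the shares of all genes.

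**Figure D2:**
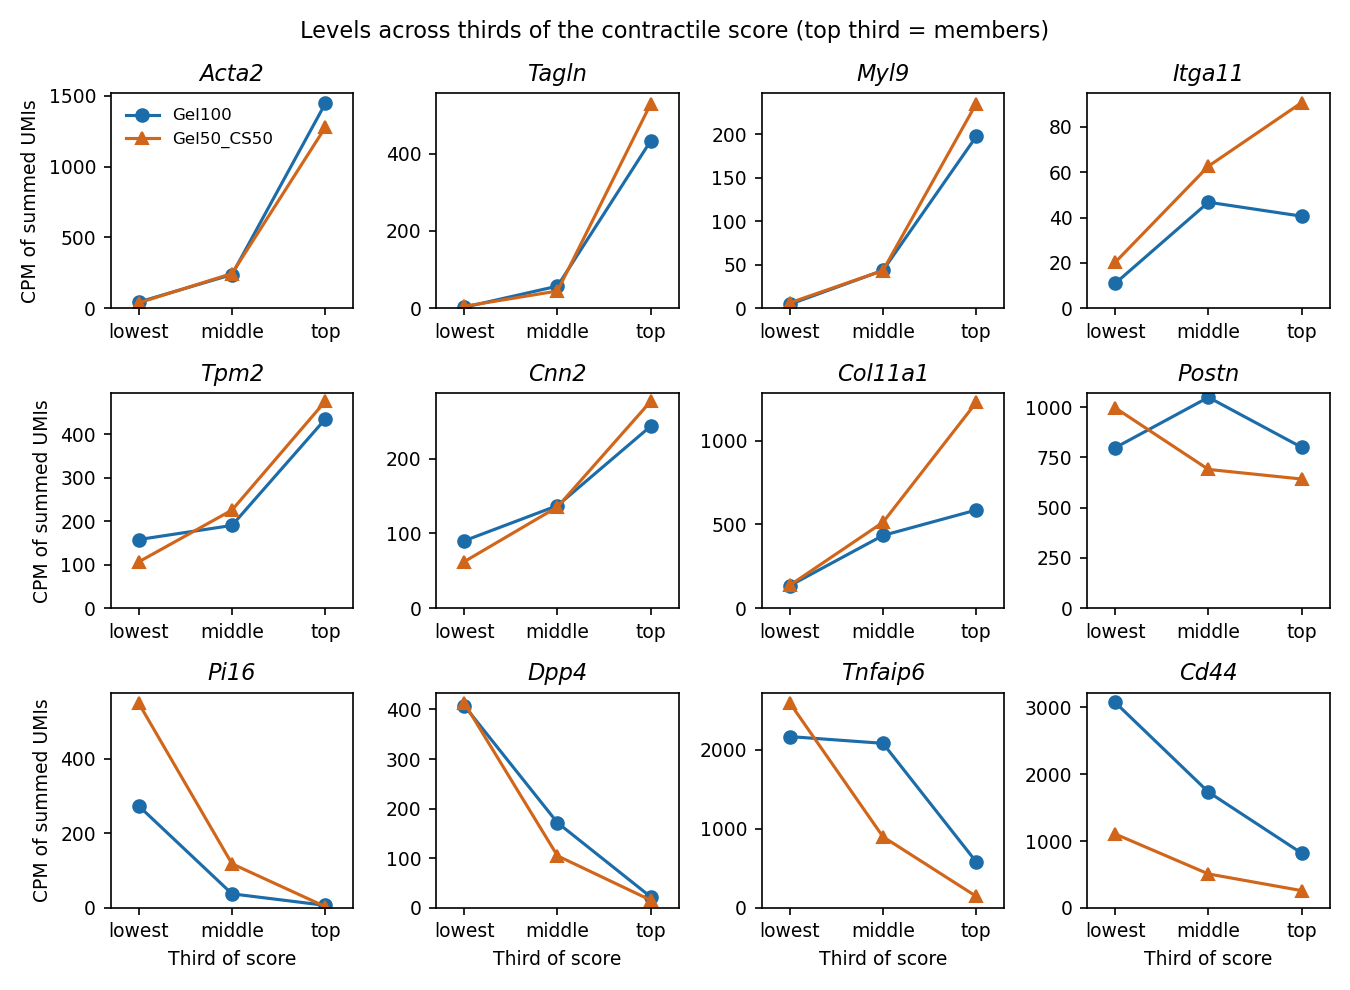
Levels of 12 genes (y axes, CPM of summed UMIs, each from 0) in the lowest, middle and top 131 stromal cells by score (x axes), with circles for Gel100 and triangles for Gel50_CS50; the top cells are the members. Acta2, Tagln and Myl9, which are part of the score, rise throughout, with the larger step in CPM on these linear axes from the middle to the top cells. Tpm2, Cnn2 and Col11a1 also rise throughout. Itga11 in Gel100 does not rise from the middle to the top cells, and Pi16, Dpp4 and Cd44 fall throughout.

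Several genes of adventitial and progenitor-like fibroblasts were lower in members than in the other stromal cells. Of 18 measured fibroblast and progenitor genes 0 were higher, 9 lower and 9 neither, with medians of -0.76 and -1.11. Among all measured genes 2.77% were higher and 6.63% lower. Dpp4, a surface peptidase of fibroblast progenitors on chromosome 2 at 62330073 to 62412231, had a lowest, median and highest member of 0, 0 and 179 CPM in Gel100 and 0, 0 and 400.04 CPM in Gel50_CS50. The median other stromal cell held 151 and 73.2 CPM. Its sums were 22.0 and 15.3 CPM in members against 306 and 251, log2 ratios of -3.80 [-4.35 to -3.30] and -4.04 [-4.37 to -3.72]. Most members held no Dpp4 and most other stromal cells held some. Pi16, a marker of the same cells, stood at 6.65 and 3.28 against 172 and 323 (-4.69 [-5.76 to -3.80] and -6.62 [-7.38 to -5.96]), with a UMI in 12% and 13.2% of members.

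The other leading genes lower in members were Clec3b (18.0 and 39.0 CPM against 385 and 566), the ferritin receptor Scara5 (15.3 and 12.9 against 243 and 165), tenascin X, Tnxb (28.6 and 15.3 against 351 and 283), the adhesion protein gene Opcml (25.9 and 9.30 against 256 and 293), the protease gene Adamts19 (12.6 and 12.4 against 335 and 102), complement C3 (13.3 and 28.3 against 161 and 367) and the protease inhibitor Serpinb2 (58.5 and 2.19 against 315 and 93.2, with 87.5% of the Gel100 members' UMIs in 1 cell). The adhesion gene Chl1 had 0 UMIs in the Gel100 members against 52.7 CPM in the other stromal cells, at least 26.4-fold lower with a floor of 3 UMIs over the members, and stood at 4.92 against 151 in Gel50_CS50. These ratios moved with the setting in both directions. In Gel50_CS50 that of Serpinb2, -5.41 as reported, was -0.22 with the upper 1 in 2 cells as members and -1.60 without Tagln in the score. That of Pi16 was -1.71 with cells thinned and -2.51 without Acta2 in the score. Leaving out the highest cells took the Gel50_CS50 log2 ratio of Dpp4 to -4.93, of Clec3b from -3.86 to -4.57, of Tnxb from -4.21 to -4.96, of Adamts19 from -3.04 to -3.71 and of Chl1 from -4.94 to -5.69. In Gel100 it took that of Pi16 to -5.53, of Scara5 from -3.99 to -4.65 and of Serpinb2 from -2.43 to -4.26. The stem cell antigen Cd34 was lower at 93.8 and 47.8 against 380.1 and 306, and the PDGF receptor Pdgfra at 126 and 164 against 237 and 354. Its relative Pdgfrb was not counted among the higher genes, at 79.8 and 159 against 62.9 and 87.7.

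Some inflammatory and early-response genes were also lower in members. For this and the next list, the shares of all measured genes were 2.77% higher and 6.63% lower. Of 20 measured inflammatory fibroblast genes 0 were higher, 11 lower and 9 neither, with medians of -0.79 and -1.02. The Gel100 median was between 0.052 and 0.095 under 4 alternatives. Tnfaip6, a hyaluronan-binding protein induced by cytokines, had lowest, median and highest members of 0, 36.6 and 2306 CPM in Gel100 and 0, 23.4 and 2727 CPM in Gel50_CS50. It stood at 581 and 145 CPM in members against 2129.7 and 1705 (-1.87 [-1.98 to -1.77] and -3.56 [-3.66 to -3.45]). The hyaluronan synthase Has1 stood at 16 and 14.6 against 159.9 and 151, the neutrophil chemokine Cxcl1 at 72.5 and 108 against 341 and 316 and interleukin 6 (Il6) at 9.98 and 8.02 against 29.9 and 56.5. Of 15 immediate-early and heat-shock genes 0 were higher, 7 lower and 8 neither, the lower ones including Egr1 (211 and 213 against 488 and 477) and Atf3 (24.0 and 8.93 against 121 and 116). These genes can also be induced while cells are released from tissue, and the part of that step was not tested.

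The other lists were mixed. Their counts stand beside 2.77% higher and 6.63% lower among all measured genes, and counts of 1 or 2 genes are not read as a trait of a list. Of 14 matrix receptor and cadherin genes 1 was higher, cadherin 11 (452 and 679 CPM against 262 and 338), and 4 were lower, among them the hyaluronan receptor Cd44 (817 and 257 against 2498 and 791) and the collagen receptor kinase Ddr2 (186 and 158 against 349.5 and 309.96). Of 18 matrix protease and inhibitor genes 1 was higher and 5 lower, including the gelatinase Mmp2 (211 and 220.4 against 406 and 468). Of 20 growth and angiogenic factor genes 2 were higher, the lymphatic growth factor Vegfc (147 and 126 against 58.9 and 69.6) and the activin subunit Inhba (307 and 82.6 against 179 and 52.4), and 5 lower, among them the Wnt modulator Sfrp2 (144 and 149.9 against 466 and 456). Among 4 measured bone genes 2 were higher, Spp1 and the homeobox gene Msx1 (34.6 and 60.4 against 18.8 and 16.4), while the bone regulator Runx2 stood at 229 and 332 against 211 and 309. Of 7 cartilage and tendon genes 2 were higher and 2 lower; tenomodulin, Tnmd, stood at 116 and 72.2 against 16.5 and 42.9. Of 18 interferon-stimulated genes 1 was higher, the ubiquitin-like Isg15 (844 and 575 against 421 and 290.2), and 0 lower. Of 3 measured cell cycle genes that the rule did not use 0 passed the fold either way.

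**Figure D3:**
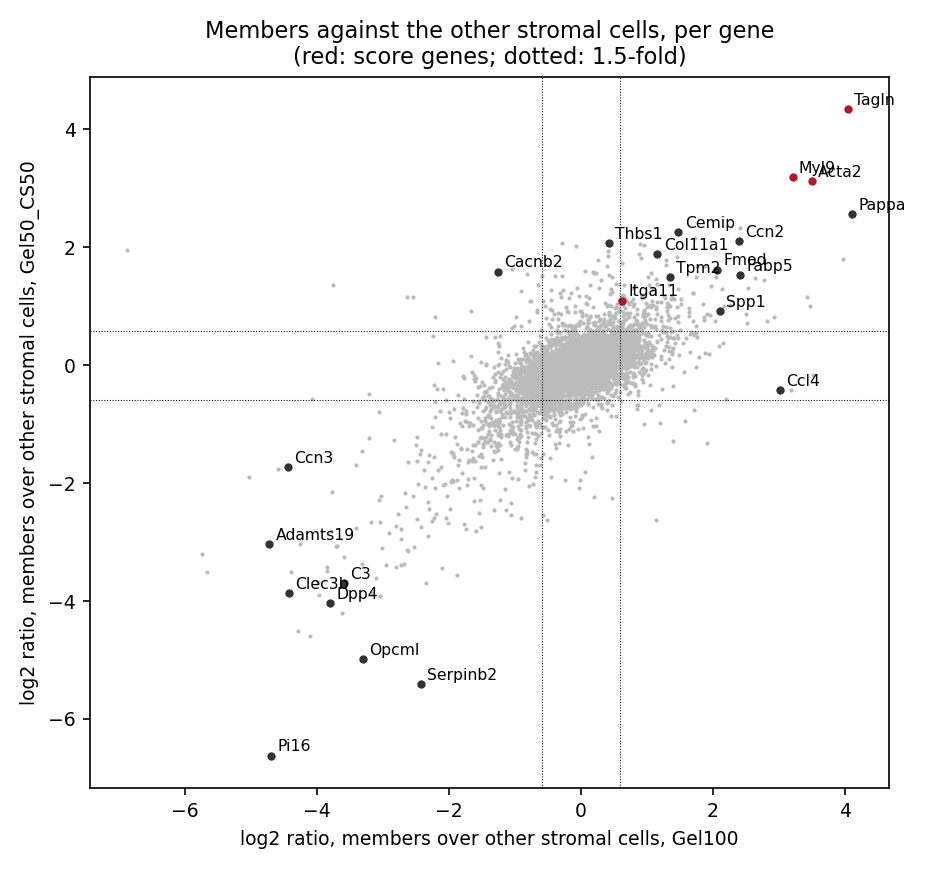
Each point is a measured gene by its log2 ratio of members over other stromal cells in Gel100 (x axis) and Gel50_CS50 (y axis); 6852 of 6858 are drawn, and 6 with 0 UMIs in a group are left out. Score genes are red, named examples are black, and dotted lines mark 1.5-fold; most named genes lie on the same side in both libraries, Cacnb2 and Ccl4 do not.

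How members differed between the scaffolds was read from their summed counts, Gel50_CS50 over Gel100. Here the score genes were close: Acta2 at -0.18 [-0.25 to -0.11] on the log2 scale, Tagln at 0.29 [0.17 to 0.41] and Myl9 at 0.25 [0.069 to 0.44], with Itga11 higher in Gel50_CS50 at 1.16 [0.77 to 1.57]. For Acta2 the sign changed with the setting, to 0.087 with each library ranked alone and 0.25 with cells thinned to 3000 UMIs. Both libraries used 1 score limit, so similar levels of these genes are partly built in. Of 6762 measured genes 494 (7.31%) were above 1.5-fold in Gel50_CS50 and 491 (7.26%) below 1/1.5, with a median log2 ratio of -0.0095. In the other stromal cells, which are more numerous, 194 of 6827 (2.84%) were above and 252 (3.69%) below. These shares hold counting error and single cells of 25 Gel100 members as well as differences between pools, and their parts were not tested.

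The type IV collagen chains Col4a1 and Col4a2 and the myosin kinase Mylk were among the 12 leading genes higher in Gel50_CS50 members. Col4a1, which builds basement membrane, had lowest, median and highest members of 0, 0 and 1193 CPM in Gel100 and 0, 251 and 5049 CPM in Gel50_CS50. Its sums were 547 CPM in Gel50_CS50 and 154 in Gel100, a log2 ratio of 1.82 [1.63 to 2.02], against -0.27 in the other stromal cells. A UMI was found in 74.5% of Gel50_CS50 and 28% of Gel100 members. Its partner chain Col4a2 stood at 326 against 87.2 CPM (1.90 [1.65 to 2.17], other stromal cells -0.46). Mural reference cells held 1569 and 1413 CPM of Col4a1, and the part of such cells was not tested.

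Mylk, whose product phosphorylates the myosin light chain, stood at 123 CPM against 25.9 (2.25 [1.78 to 2.75], other stromal cells 0.89). The lowest, median and highest members were 0, 0 and 189 CPM in Gel100 and 0, 113 and 579 CPM in Gel50_CS50, and 77.4% against 48% of members held a UMI. The endothelin receptor Ednra was at 87.3 against 24.0 (1.87 [1.38 to 2.40]), the netrin receptor Unc5c at 286 against 82.5 (1.80 [1.53 to 2.07]) and the calcium channel subunit Cacnb2 at 152 against 22.6 (2.75 [2.26 to 3.29]). In the other stromal cells these 3 genes had log2 ratios of 0.20, -0.21 and -0.087. Most contractile genes did not differ by this much: of 26 measured genes of the apparatus 2 were above 1.5-fold, Mylk and the myosin heavy chain Myh10 (117 against 61.2 CPM). Only 1, Tagln2, was below 1/1.5. Of all measured genes 7.31% were above and 7.26% below, so these counts do not set the list apart. The median of this list was 0.061.

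As a list, wound matrix genes did not stand apart between the libraries. Of 30 genes 4 exceeded 1.5-fold and 3 lay below 1/1.5, against 7.31% and 7.26% of all genes, and the list's median was 0.11 in members and 0.13 in other stromal cells. Thbs1, thrombospondin 1, which activates latent TGF-beta, stood at 319.99 CPM against 97.1 (1.72 [1.48 to 1.97], other stromal cells 0.070). Col11a1 stood at 1228 against 585 (1.07 [0.97 to 1.17], 0.35) and Col12a1 at 1909 against 1239 (0.62 [0.55 to 0.70], 0.40). The collagenase Mmp13 was at 253 against 27.9 CPM (3.18 [2.74 to 3.66]), but its log2 ratio was 2.50 in other stromal cells too, the median member of either library held none, and 81.0% of the Gel100 UMIs were in 1 member. The Mmp13 ratio was 5.28 without the highest cells. Angiopoietin 1 (Angpt1) stood at 168 against 62.5 and the integrin subunit Itga1, which binds type IV collagen, at 45.0 against 12.6.

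Other leading genes higher in Gel50_CS50 members were Ttr, whose UMIs were almost all in 1 cell and which is described at the end, Ifitm1 (129 against 25.9 CPM), the stress gene Ddit4l (80.2 against 22.0, with 87.9% of the Gel100 UMIs in 1 member and a log2 ratio of 4.75 in place of 1.87 without the highest members), Csmd1 (269 against 67.9, with 60.8% in 1 Gel100 member, and 3.02 in place of 1.99) and the acute-phase gene Saa3 (83.9 against 22.0, 1.93 [1.42 to 2.49]). The sign of the Saa3 ratio changed with the upper 1 in 2 stromal cells as members, and it was 0.97 without Ptprc-positive members. Their log2 ratios in other stromal cells were 1.23, 0.57, 1.5 and 1.44.

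Glycolysis genes were lower in Gel50_CS50 members as a group. Of 15 measured glycolysis and hypoxia genes 0 were above 1.5-fold and 13 below 1/1.5, against 7.26% of all genes below. Their median log2 ratio was -0.89 in members and -0.057 in other stromal cells. The enolase gene Eno1 had lowest, median and highest members of 0, 639.5 and 1781 CPM in Gel100 and 0, 199.7 and 1339 CPM in Gel50_CS50. Summed, Gel100 members held 749 CPM and Gel50_CS50 members 326 (-1.20 [-1.31 to -1.09]), against 456 and 394 in the other stromal cells (-0.21). Lactate dehydrogenase, Ldha, stood at 745 and 396 CPM in members (-0.91 [-1.02 to -0.81]) and at 479.8 and 501 in the rest, and Gapdh at 1270.1 and 827 (-0.62 [-0.70 to -0.54]) and 819 and 929.

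Summed over the 17 genes of the list, single members of Gel100 held a lowest, median and highest level of 1192, 4955 and 11326 CPM, and those of Gel50_CS50 568, 2108 and 9942. The ranges overlapped widely while the medians differed. In the other stromal cells the medians were 2460.3 and 2208 CPM, made up of 2951 and 2360 in the middle and 2067 and 2093 in the lowest cells. Stromal cells set aside for their cell division genes had medians of 4263 and 2968 CPM. A lower level in Gel50_CS50 is thus not particular to members. Within Gel100 the list had a median log2 ratio of members over other stromal cells of 0.47, and within Gel50_CS50 of -0.33. Under the alternatives run for this list the median of Gel50_CS50 over Gel100 in members was between -0.98 and -0.66. The highest Gel100 member held 12.7% of the Eno1 and 13.2% of the Gapdh UMIs. Whether members and other stromal cells differ in this ratio beyond the spread between mice could not be tested with 1 pool per scaffold, here and for the genes above and below.

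**Figure D4:**
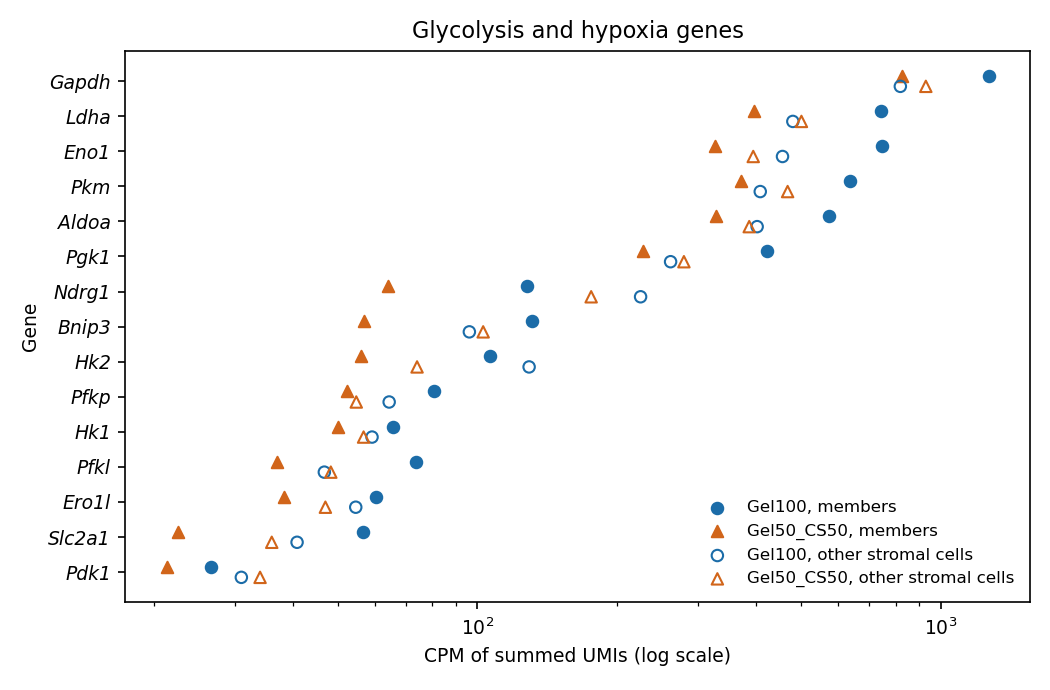
Levels of the 15 measured glycolysis and hypoxia genes (y axis) in CPM of summed UMIs (x axis, log scale), with filled symbols for members, open symbols for other stromal cells, circles for Gel100 and triangles for Gel50_CS50. For each gene the filled circle lies to the right of the filled triangle, while for most genes the open symbols of the libraries lie close together.

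Interferon-stimulated genes were lower in Gel50_CS50 in members and in other stromal cells, and chemokines went both ways. Of 18 measured interferon-stimulated genes 0 exceeded 1.5-fold and 10 lay below 1/1.5 in members, against 7.31% and 7.26% of all genes. The list's median was -0.60 in members and -0.69 in the other stromal cells. Rsad2, an antiviral enzyme, was found at 132 CPM in Gel100 members and at 40.3 in Gel50_CS50 members (-1.72 [-2.00 to -1.43]), with 52.8% of the Gel100 UMIs in 1 member. The Rsad2 ratio was -1.04 without the highest members and -0.36 without Ptprc-positive ones. The interferon regulator Irf7 stood at 266 and 93.5 (-1.51 [-1.70 to -1.32]), with 11.5% in the highest. Of 19 measured inflammatory fibroblast genes 6 exceeded 1.5-fold and 9 lay below 1/1.5, against the same shares of all genes. The list's median was -0.48 in members and -0.11 in the rest.

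Among chemokines, the T cell attractant Cxcl9 was found at 267 CPM in Gel100 members and at 42.1 in Gel50_CS50 members (-2.67 [-2.91 to -2.43], other stromal cells -1.30). The monocyte attractant Ccl2 had lowest, median and highest members of 0, 99.6 and 4196 CPM in Gel100 and 0, 19.99 and 2329 CPM in Gel50_CS50, and its sums were 719 and 190.4 (-1.92 [-2.04 to -1.79], -0.59). Going the other way, the neutrophil attractant Cxcl5 was at 108 and 314 CPM (1.53 [1.30 to 1.77], 0.98). Ccl4, which leukocytes make, stood at 246 and 28.6, but 67.5% of the Gel100 UMIs were in 1 member that also held 3 Ptprc UMIs, and the log2 ratio of -3.10 was -0.25 with the Ptprc-positive members left out.

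Genes lower in Gel50_CS50 members also held Tnfaip6 (581 and 145 CPM in Gel100 and Gel50_CS50, -2.00 [-2.14 to -1.86], against -0.32 in other stromal cells) and Cd44 (817 and 257, -1.67 [-1.78 to -1.56], against -1.66). Cd44 was thus lower by about the same amount outside the members. The Wnt inhibitor Dkk2 stood at 206 and 39.0 (-2.40 [-2.66 to -2.14], or -1.63 without Ptprc-positive members), the interleukin 33 receptor Il1rl1 at 169 and 44.5 (-1.93 [-2.18 to -1.67], or -0.57 without Acta2 in the score), the transcription factor Nfatc2 at 83.2 and 17.5 (-2.25 [-2.65 to -1.85]) and the vessel growth factor Vegfa at 93.1 and 28.8 (-1.69 [-2.03 to -1.35]). The activin subunit Inhba was at 307 and 82.6 (-1.89 [-2.08 to -1.70], other stromal cells -1.77), and its ratio was 0.44 among cells without Csf1r or Ptprc UMIs. The ribosomal protein gene Rpl29 (128 and 35.4, -1.85 [-2.15 to -1.56]), like Ly6a and Ifit3, has close copies whose reads may be shared. Of 16 measured genes of the fibroblast and progenitor list 4 were above and 4 below, against 7.31% and 7.26% of all genes. Its gene Ly6a, a surface antigen of progenitor-like fibroblasts, was at 1814 and 653 CPM (-1.47 [-1.55 to -1.40], against -0.46).

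**Figure D5:**
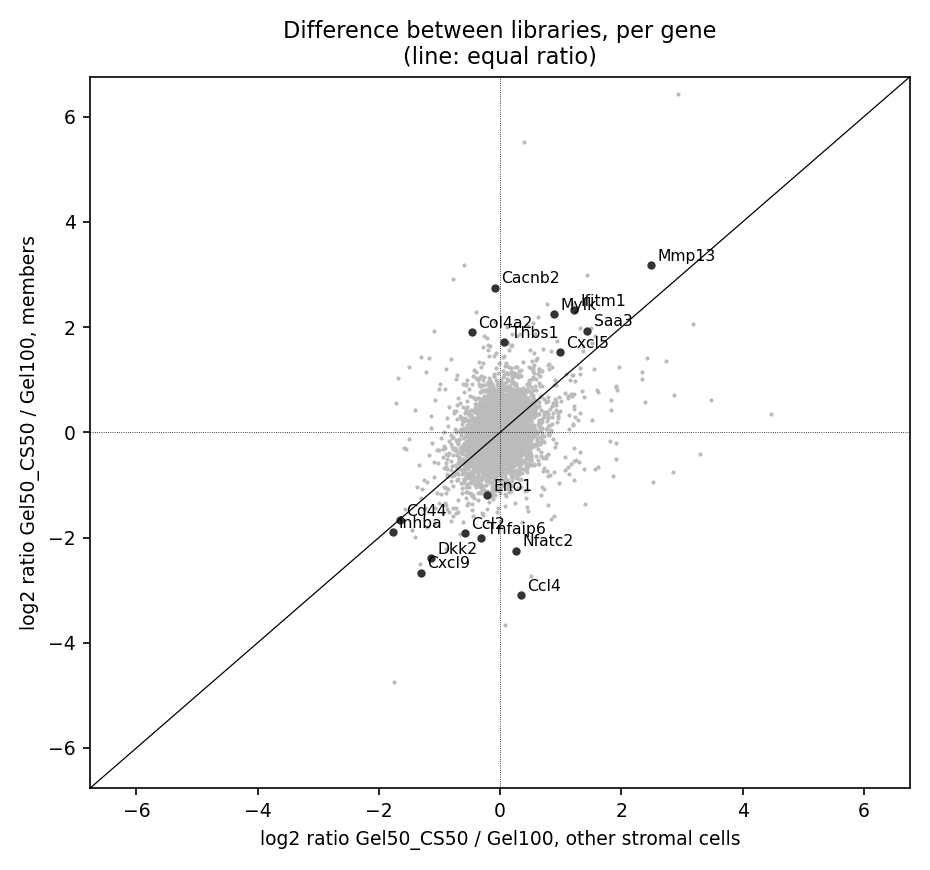
Each point is a gene measured in members, by its log2 ratio of Gel50_CS50 over Gel100 in the other stromal cells (x axis) and in members (y axis); 6760 of 6762 are drawn, 2 with 0 UMIs in a group are left out, and the line marks equal ratios. Cd44, Inhba and Mmp13 lie near the line, whereas Col4a2, Thbs1, Cacnb2 and Eno1 lie closer to 0 on the x axis than on the y axis.

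Genes that the score does not use were also read within the members. The 44 with the highest scores (10 cells of Gel100 and 34 of Gel50_CS50) were set against the 43 with the lowest (7 and 36 cells). Tpm2 went from 289.9 and 347 CPM in the lowest members to 516 and 623 in the highest, and Cnn2 from 171 and 223 to 329 and 357. Actg2 in Gel50_CS50 went from 12.8 to 80.1 CPM, and in Gel100 stood at 32.5 and 34.3. Ccn2 stood at 626 CPM in the lowest and 193 in the highest Gel100 members. These values rest on 7 and 10 cells, and a single Gel100 member held a large part of the Ccn2 UMIs, as given above. Spearman's rho of Acta2 with Tpm2 within the members was 0.57 and 0.50 (n = 25 and 106 cells), against 0.66 and 0.81 over all stromal cells. That of Acta2 with Tagln, both score genes, was 0.052 and 0.47 within the members. Members were cut on a sum that holds Acta2 and Tagln. Such a cut lowers rho by itself, so nothing is read from the lower values within the members.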

How the data were processed

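The deposited files of both libraries are raw gene-by-barcode counts of UMIs, made by the authors with Cell Ranger 6.0.2 per the file headers and the mm10 build per the submitters' processing notes. The annotation and the treatment of reads shared between similar genes are not given in the sources used here. Groups are from the labels, 1 library of 5 pooled mice each, with 108847835 and 150311308 UMIs.

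Counts were summed over cells and divided by their total to give CPM for 32285 genes. Cells were filtered and ranked as described in the report. Doublets were called with Scrublet (scanpy 1.11.5, rate 0.06) and kept, and leaving them out was an alternative. Log2 ratios have exact conditional binomial 95% intervals. No gene test was run, since each group has 1 library. Named genes are those of the 29 lists (397 genes) and, among genes of at least 50 CPM with the whole interval beyond 1.5-fold, the 15 highest and 10 lowest in members and the 12 highest and 12 lowest between libraries. Members and lists were chosen with earlier results of these data known. Median list ratios hold genes at 0 at a floor of 3 counts. Coordinates are from GENCODE for mm10. The ratio and interval code was tested on simulated counts, and the ranking code was not. Python 3.11.15, numpy 2.4.6, scipy 1.17.1 and pandas 2.3.3 were used. The alternatives varied the score genes, the share of cells taken, the filters, the depth, the scaling and the CPM minimum.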

Additional observations from a re-analysis of the deposited data

Results flagged for a closer look

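Cacnb2, a subunit of voltage-gated calcium channels, went opposite ways in the libraries. In Gel100 members stood at 22.6 CPM against 54.0 in other stromal cells, a log2 ratio of -1.25 [-1.83 to -0.71], and in Gel50_CS50 at 152 against 50.8, a log2 ratio of 1.58 [1.42 to 1.75]. The highest member held 35.3% of the Gel100 and 5.62% of the Gel50_CS50 UMIs, and 24% and 63.2% of members had a UMI. The difference between the libraries was not tested.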

How the results depend on the processing

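No paired analysis was possible because each group has 1 library, although the titles give both the same replicate number. Over 21 alternatives, of which 2 were chosen after seeing the data (leaving out the highest cells of a gene, and members with a Ptprc UMI), 100 log2 ratios and medians gave 1982 values, of which 1962 kept their sign. Exceptions among genes in Gel100, members over other stromal cells, were Itga11 (0.62 [0.12 to 1.12] as reported), at -0.043 with the upper 1 in 4 cells, -0.41 with Csf1r and Ptprc at 0 UMIs and -0.15 with cells weighted equally; Tiam2, at -0.72 with the upper 1 in 4 and -0.47 without Acta2 in the score; Ccnd1, at -0.037 thinned to 3000 UMIs; and Spp1, at -1.58 thinned, -0.88 with Csf1r and Ptprc at 0 and -0.073 without its highest cells. The Gel100 median of the inflammatory list was 0.078 with the upper 1 in 2 cells, 0.095 with each library ranked alone, 0.052 with Csf1r and Ptprc at 0 and 0.059 against the lowest cells. Between libraries, Saa3 was at -0.25 with the upper 1 in 2 and -0.30 thinned, and Inhba at 0.44 with Csf1r and Ptprc at 0. The cause of these changes was not tested. The count of kept signs is not a measure of stability. Changing the CPM minimum cannot alter the ratio of a single gene, and no Gel100 stromal cell was called a doublet. Most of these genes were also picked for their large ratios. The 190 higher and 455 lower genes of members became 1169 and 1835 with no CPM minimum and 59 and 174 at 100 CPM, by construction with more or fewer genes; 345 were higher when thinned and 432 against the lowest cells. The 494 and 491 genes between libraries became 3590 and 2450 with no minimum, 107 and 119 at 100 CPM, 1325 and 1707 thinned, and 836 and 784 with Csf1r and Ptprc at 0; 324 were lower with the upper 1 in 2. The difference in member share was between 2.70 and 13.1 points. With 25 Gel100 members, counts of genes below about 50 CPM rest on few cells.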

Other observations

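Transthyretin, Ttr, a carrier protein made by liver and choroid plexus, had 0 UMIs in the Gel100 members and 245 CPM in those of Gel50_CS50. Of the 1343 UMIs of Ttr in Gel50_CS50 members 1341 were in 1 cell, which held 50500 UMIs in all. In macrophages of Gel50_CS50, 74 of 3300 cells held 126 Ttr UMIs, and in those of Gel100 2 of 2760 cells held 2.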
